A study of Homo sapiens with 6 samples.

Results

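The tubulin cofactors A to E (TBCA, TBCB, TBCC, TBCD and TBCE), the small GTPase ARL2, delta tubulin (TUBD1) and epsilon tubulin (TUBE1) were followed in hTERT RPE1 cells after microtubule depolymerization. They were chosen by name, by matching gene symbols to the Ensembl IDs of the table, and all 8 of the 8 symbols were found among its 38900 IDs. This established line comes from human retinal pigment epithelium and was immortalised with telomerase. All cultures stayed at full confluency for 5 days to become quiescent and then received fresh medium for 6 hours, with 100 nM combretastatin A4 (CA4) in one group and 0.1% DMSO in the other. CA4 is a colchicine-site ligand of tubulin that depolymerizes microtubules. PolyA RNA of 3 libraries per group was sequenced. The labels do not say whether the 3 replicates were separate cultures, so p-values measure the spread between these libraries, which may be technical.

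Alpha and beta tubulin do not fold alone. Newly made chains pass from the prefoldin and CCT chaperonins to the cofactors. TBCB and TBCE receive alpha tubulin, TBCA and TBCD receive beta tubulin, and TBCC then joins the complex and stimulates GTP hydrolysis, which frees the dimer. ARL2 forms a stable complex with TBCD and TBCE that works on the finished dimer. Delta and epsilon tubulin belong to the tubulin family but are not subunits of cytoplasmic microtubules. They are needed for the triplet microtubules of centrioles, where they act with the proteins TEDC1 and TEDC2. Cells also lower the messages of alpha and beta tubulin when free dimers build up, by a decay that acts during translation and reads the first residues of the new chain (methionine, arginine, glutamate, then cysteine in alpha and isoleucine in beta tubulin). Which of these helper and relative genes respond to the drug as the alpha and beta tubulins do is the question of the comparison below.

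The coding starts of TUBD1 and TUBE1 are shown with those of alpha, beta and gamma tubulins because the decay of tubulin messages reads this stretch. Each line gives the first 30 coding bases of the spliced main transcript in GENCODE 29 (GRCh38), 5′ to 3′, with the first 4 codons in capitals.
TUBA1B: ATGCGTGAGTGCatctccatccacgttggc
TUBB: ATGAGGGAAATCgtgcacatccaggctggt
TUBG1: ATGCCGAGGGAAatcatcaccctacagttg
TUBD1: ATGTCAATTGTAacagtgcaacttggtcag
TUBE1: ATGACCCAGTCGgtggtcgtacaggtcggc
All coding starts share the start codon ATG by construction. Over the 9 capital bases after it TUBD1 matched TUBB at 1 position and TUBA1B at 0, and TUBE1 matched TUBB at 2 and TUBA1B at 3, beside 4 between TUBB and TUBA1B. The bases that the tested beta tubulins share there form the pattern ATGNGNGANATC, and those of the tested alpha tubulins form ATGCGNGANTGC, with N where they differ. Both patterns were searched at the start codon, on the coding strand. Among 12694 tested genes with a coding start in GENCODE 29, 7 (0.0551%) held the first and 5 (0.0394%) the second. These were the 11 tested alpha and beta tubulins, by construction, and INTS15, a subunit of the Integrator complex. None of the 8 genes held either pattern. In TUBG1 the bases AGGGAAATC, codons 2 to 4 of TUBB, lay 1 codon further on, from coding base 7.

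Values are read counts divided by a factor of each library, called normalized counts here, and the libraries held 19524936 to 22538004 reads. Of the 12 markers of retinal pigment epithelium, 8 averaged 10 or more normalized counts, KRT8 and KRT18 foremost, while RLBP1, LRAT and TYR were under 10 and TTR was at 0 in every library. Their summed level, 24193 to 26622 normalized counts in DMSO and 27031 to 32207 in CA4, is mostly that of the keratins KRT8 and KRT18, which other epithelia also express. Without these keratins the sum was 1146 to 1854 in DMSO and 652 to 1053 in CA4, so it was lower in CA4. Of the 8 tested, 4 had a log2 fold change above 0 and 4 below (5 above under quantile normalization and 3 with equal library totals), with a median of 0.03. Among the 8, 1 passed in limma, the transcription factor OTX2, which fell from 533 ± 104 to 244 ± 15.5 normalized counts (SD, n = 3 each; log2 fold change -1.11, adjusted p = 0.0158). OTX2 lost its call without CA4 replicate 1 or 3 or DMSO replicate 2 or 3, with limma adjusted p-values from 0.0589 to 0.0792. MITF, another transcription factor of this epithelium, had a log2 fold change of -0.98 and did not pass (limma adjusted p = 0.1). KRT18 was at 0.46 with all 3 CA4 libraries above all DMSO libraries, as in 14.3% of tested genes. It did not pass either (limma adjusted p = 0.0849). Of the 8 tested markers, the groups of 1 lay apart with CA4 higher and those of 2 with CA4 lower. Of 7 blood and endothelial markers, CD3E and HBB were at 0, but PECAM1, CDH5 and VWF were present. The summed level of the 7 was 948 to 1432 normalized counts in DMSO and 1309 to 3232 in CA4, with the highest value in CA4 replicate 3. The 3 that were tested, PECAM1, CDH5 and VWF, had log2 fold changes above 0 with a median of 0.65, and 0 passed in limma. For PECAM1 all CA4 libraries lay above all DMSO libraries. The summed level of 15 proliferation genes was 9096 to 19237 in DMSO and 5564 to 14510 in CA4, and it was highest in replicate 1 of both groups. Of the 15, 0 passed, beside 4.94% of all tested genes. All 15 had a log2 fold change below 0 (14 under quantile normalization), with a median of -0.37. Among them MCM2 (log2 fold change -0.69, limma adjusted p = 0.112), MCM5 (-0.73, 0.184) and PCNA (-0.37, 0.318), which serve DNA replication, did not pass. All 15 averaged 10 or more normalized counts, and whether the cultures were quiescent was not tested.

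None of the 8 genes passed limma at an adjusted p under 0.05, a threshold met by 4.94% of the 13928 tested genes. All 8 were abundant enough to be tested, which took an average of 10 normalized counts over the 6 libraries. The 5 cofactors and ARL2 had overlapping groups, with log2 fold changes from -0.13 for ARL2 to 0.06 for TBCE. TUBD1 had a lower and TUBE1 a higher mean in CA4, and neither difference reached significance. At an unadjusted p under 0.05 there were 2 of the 8, against 23.0% of all tested genes. In edgeR and DESeq2 on the recovered reads 0 of the 8 passed, where 4.62% and 11.6% of all genes did. The median log2 fold change of the 8 was -0.0030, beside -0.0082 over all tested genes. In RNA from whole cultures, fewer cells expressing a gene and less RNA per cell cannot be told apart.

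**Figure D1:**
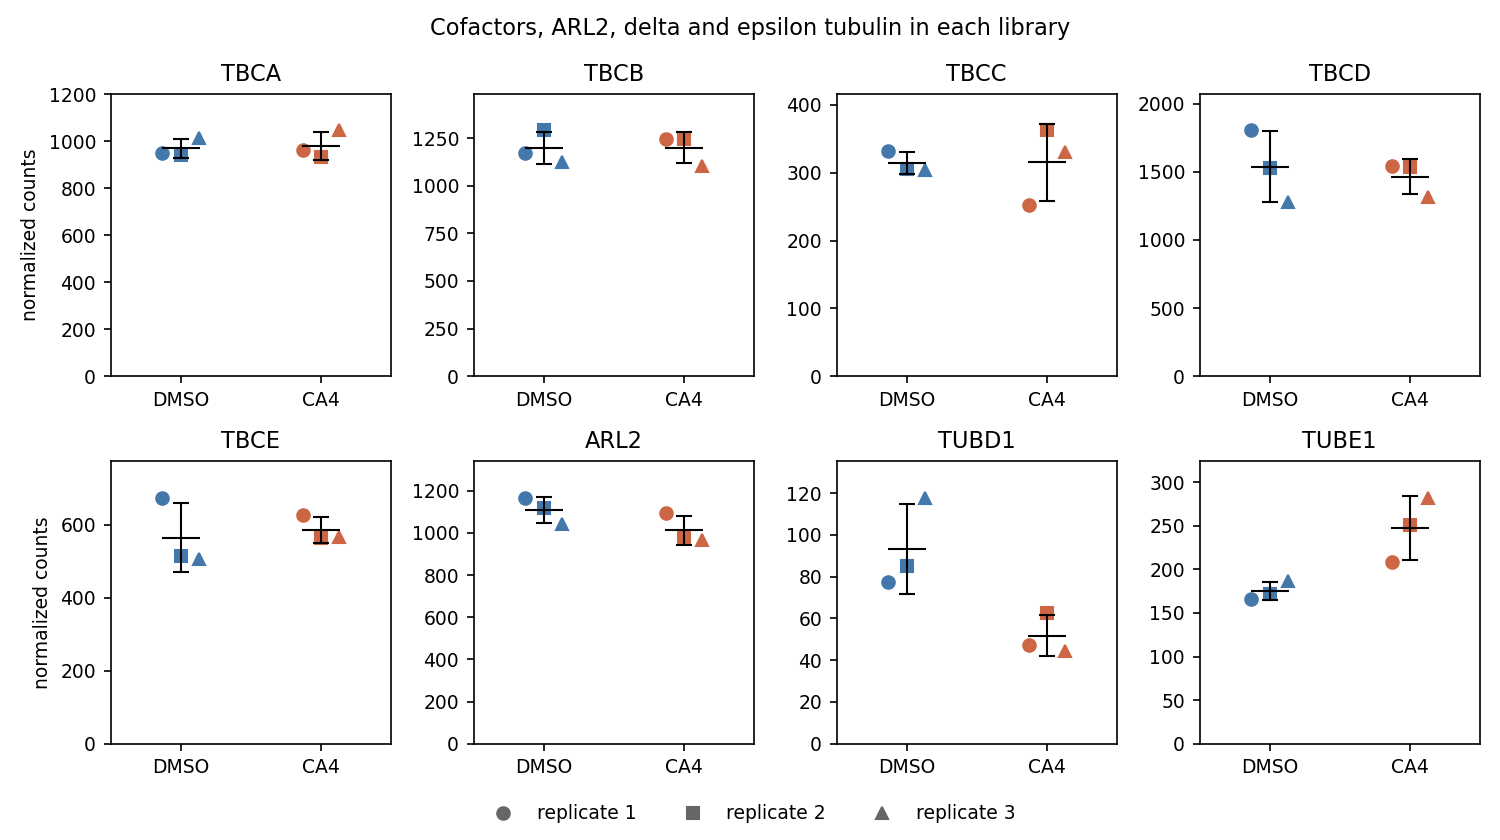
Normalized counts of the 8 genes in each library (y axis from 0), DMSO in blue and CA4 in orange, with 1 symbol per replicate number; black lines are the group mean and SD (n = 3). The groups overlap in the 5 cofactors and ARL2, and lie apart in TUBD1 (44.6 to 62.8 in CA4 against 77.3 to 118) and TUBE1 (209 to 282 against 166 to 186).

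TBCB and TBCE act on alpha tubulin. TBCB, the cofactor that first takes alpha tubulin (ENSG00000105254, chr19:36114289-36125947, plus strand), was read at 1173, 1291 and 1127 normalized counts in the DMSO libraries, in the order of replicates 1 to 3 kept from here on, and at 1248, 1248 and 1105 in the CA4 libraries. The CA4 values all lay within the DMSO range except that of replicate 3, just under it. Its log2 fold change was 0.0033, with a 95% interval from -0.22 to 0.23 (limma adjusted p = 0.99). TBCE, which carries alpha tubulin into the complex with beta tubulin (ENSG00000284770, chr1:235367360-235452443, plus strand), had 673, 514 and 506 normalized counts in DMSO and 627, 563 and 567 in CA4. DMSO replicate 1 was the highest and the other two DMSO libraries the lowest of the 6. For TBCE the log2 fold change was 0.06, with an interval from -0.25 to 0.38 (limma adjusted p = 0.825). A second ID that GENCODE 29 also names TBCE, ENSG00000285053, starts within GGPS1 and shares 17.9% of the exon bases of the first. It held 91.7, 105 and 93.1 normalized counts in DMSO and 101, 112 and 100.3 in CA4, so its groups overlapped as well (log2 fold change 0.11, limma adjusted p = 0.745).

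TBCA and TBCD act on beta tubulin. TBCA, a small chaperone that holds beta tubulin (ENSG00000171530, chr5:77691166-77868780, minus strand), had 951, 942 and 1016 normalized counts in DMSO and 965, 932 and 1047 in CA4. The 2 groups spanned nearly the same values, and its log2 fold change of 0.02 had an interval from -0.19 to 0.23 (limma adjusted p = 0.941). The 3 pseudogenes TBCAP1, TBCAP2 and TBCAP3 had 0 normalized counts in every library. TBCD, the large scaffold that takes beta tubulin from TBCA (ENSG00000141556, chr17:82752064-82945922, plus strand), had 1803, 1529 and 1278 in DMSO and 1541, 1536 and 1317 in CA4. Its DMSO libraries spread more widely than those of CA4 and enclosed all 3 of them. Its log2 fold change was -0.06, with an interval from -0.38 to 0.26 (limma adjusted p = 0.844).

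TBCC and ARL2 form the GTPase side of the cycle. TBCC, the activator of hydrolysis (ENSG00000124659, chr6:42744481-42746096, minus strand), had 332, 306 and 304 normalized counts in DMSO and 252, 362 and 331 in CA4. CA4 replicate 1 was the lowest and CA4 replicate 2 the highest of the 6 libraries. Its log2 fold change was -0.0094, with an interval from -0.38 to 0.36 (limma adjusted p = 0.982). ARL2, the GTPase (ENSG00000213465, chr11:65014113-65022184, plus strand), had 1167, 1117 and 1042 in DMSO and 1093, 977 and 967 in CA4. Of the 3 CA4 libraries 2 lay under all DMSO libraries, and replicate 1 lay among them. The log2 fold change of ARL2, -0.13, was the farthest from 0 of the 6, with an interval from -0.35 to 0.09 (limma adjusted p = 0.455). The readthrough gene ARL2-SNX15, which shares 17.5% of the exon bases of ARL2, held 5.7 normalized counts in DMSO replicate 3 and 0 in the other 5 libraries.

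The intervals of these 6 genes ran from -0.38 at the lowest to 0.38 at the highest. Each lay within a 1.5-fold change in either direction, as did 45.0% of all tested genes. Scaling the libraries to equal totals moved the median of all genes by -0.10. Under that scaling TBCA, TBCB and TBCE took small negative values, so the signs of these 3 depend on the scaling. Opposite-strand exons overlap TBCB (12.5% of its exon bases, POLR2I), TBCD (5.81%, B3GNTL1) and TBCE (3.36%, B3GALNT2), and the use of strand in counting is not given in the sources used here.

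TUBD1, encoding delta tubulin (ENSG00000108423, chr17:59859482-59892945, minus strand), was read at 77.3, 85.1 and 118 normalized counts in the DMSO libraries. The CA4 libraries gave 47.4, 62.8 and 44.6. All 3 CA4 libraries lay below all 3 DMSO libraries, which 13.4% of tested genes did. The group means were 93.4 ± 21.5 and 51.6 ± 9.83 (SD, n = 3 each). The log2 fold change of -0.84 (SE 0.25; interval -1.43 to -0.25) did not pass in limma (adjusted p = 0.102). The gene rests on few reads, between 40 and 124 per library. The 95% Poisson interval of the closest pair, which covers counting error only, ran from 61.3 to 96.2 in DMSO replicate 1 and from 47.5 to 81.6 in CA4 replicate 2, so these 2 libraries are not apart beyond counting error. Without DMSO replicate 3, the highest library, the log2 fold change was -0.66 (limma adjusted p = 0.279).

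TUBE1, encoding epsilon tubulin (ENSG00000074935, chr6:112070777-112087529, minus strand), had 166, 172 and 186 normalized counts in DMSO and 209, 251 and 282 in CA4. Here all 3 CA4 libraries lay above all 3 DMSO libraries, as in 14.3% of tested genes. The group means were 175 ± 10.3 and 247 ± 36.8 (SD, n = 3 each). The log2 fold change of 0.49 (SE 0.16; interval 0.12 to 0.86) did not pass in limma either (adjusted p = 0.118). CCN6, which overlaps 2.77% of the exon bases of TUBE1 on the opposite strand, was at 0 in every library. The 2 genes whose groups did not overlap among the 8 thus differed in direction, and their share is to be read beside the 27.7% of all tested genes without overlap. CA4 replicate 3, the library with the most endothelial marker reads, was the highest for TUBE1 and the lowest for TUBD1. Without it the log2 fold changes were 0.39 for TUBE1 and -0.74 for TUBD1, and the part of the endothelial or pigment epithelium marker genes or of the proliferation genes in either value was not tested.

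Since delta and epsilon tubulin act together, their ratio within a library was also taken. The log2 ratio of TUBE1 to TUBD1 normalized counts was 1.104, 1.02 and 0.66 in DMSO and 2.14, 2.00 and 2.66 in CA4. Group means were 0.93 ± 0.23 and 2.27 ± 0.35 (SD, n = 3 each). Every CA4 library had the higher ratio, which follows by arithmetic because TUBE1 lay higher and TUBD1 lower in all of them. This ratio was formed after both genes' values had been seen and is given without a test.

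**Figure D2:**
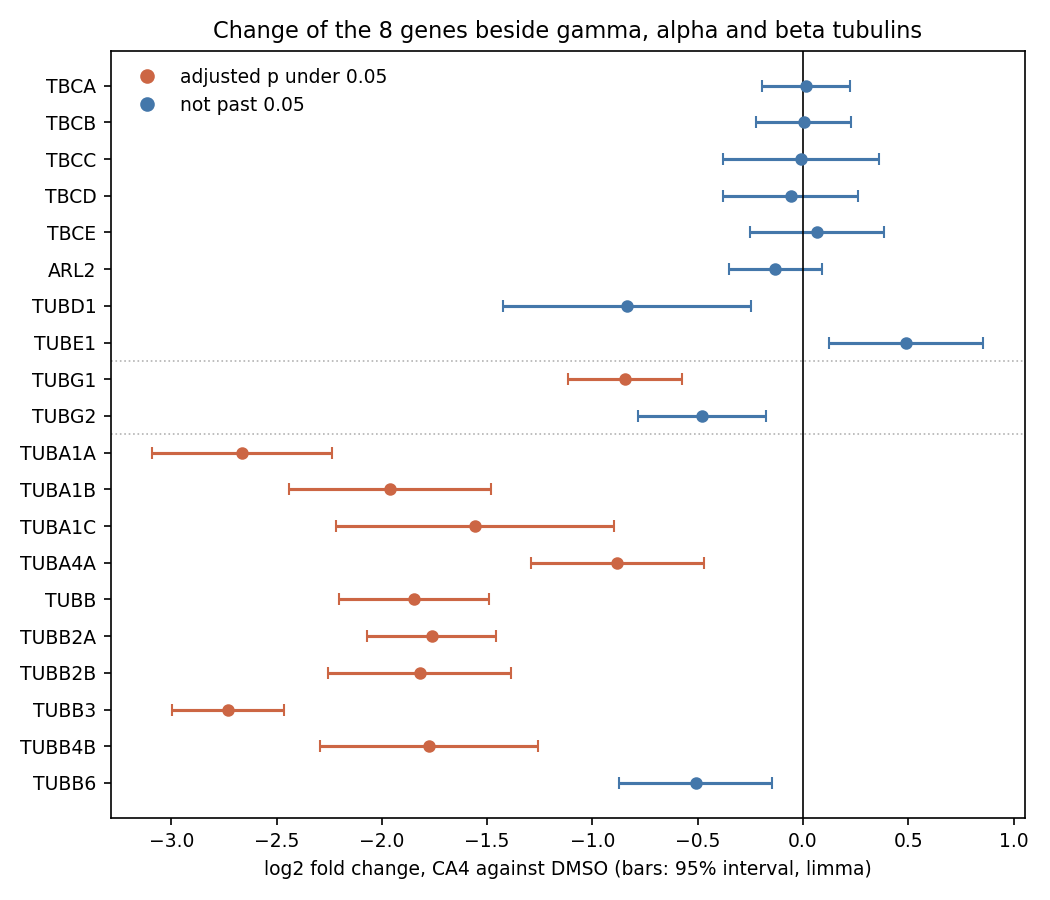
Log2 fold change in CA4 against DMSO (x axis) with its 95% interval from limma for the 8 genes, gamma tubulins and the tested alpha and beta tubulins other than TUBA8; orange marks an adjusted p under 0.05. The intervals of the 5 cofactors and ARL2 lie between -0.38 and 0.38, and those of the 9 alpha and beta tubulins past the threshold all end below -0.47.

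Of 11 tested alpha and beta tubulins 9 passed, all lower in CA4, with a median log2 fold change of -1.78 over the 11, and 7 or 8 passed when any 1 library was left out. The upper interval ends of those 9 were at most -0.47, while the lowest interval end among the 5 cofactors and ARL2 was -0.38. The other two tubulins, which did not pass, had intervals that overlapped those of the cofactors. They were TUBB6, from -0.87 to -0.15 (log2 fold change -0.51, limma adjusted p = 0.105), and the scarcely read TUBA8, from -3.13 to 2.63. TUBB3, which passed with the smallest p of the list, had a log2 fold change of -2.73 (limma adjusted p = 2.87e-04). Next were TUBA1A at -2.66 and TUBB2A at -1.76 (limma adjusted p = 0.00154 and 0.00176). INTS15, the gene outside the family whose coding start held the beta tubulin pattern, had a log2 fold change of -0.03 (limma adjusted p = 0.908). Gamma tubulin TUBG1, of the ring complex that starts microtubules, fell from 980.2 ± 112 to 544 ± 37.4 normalized counts (SD, n = 3 each). It passed in limma (log2 fold change -0.84, SE 0.12, adjusted p = 0.0135), at the size seen in TUBD1 but with a smaller standard error and more reads. Whether the 2 genes differ was not tested. TUBG1 lost its call without DMSO replicate 3 (limma adjusted p = 0.0615) or without CA4 replicate 3 (limma adjusted p = 0.0532). TUBG2 had a log2 fold change of -0.48 and did not pass (limma adjusted p = 0.0801).

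Per kilobase of main transcript, TBCA was the most abundant of the 8 in DMSO, at 1420.1 ± 58.9 normalized counts per kilobase (SD, n = 3). ARL2 followed at 1132 ± 64.3, TBCB at 813 ± 57.4, TBCE at 285 ± 47.6, TBCD at 214 ± 36.6, TBCC at 194 ± 9.82, TUBE1 at 81.6 ± 4.80 and TUBD1 at 37.5 ± 8.63 (SD, n = 3 each). The ranges of neighbours in this order did not overlap over the 3 DMSO libraries, except those of TBCD and TBCC. The place of TBCD depends on its transcript. With its longest APPRIS alternative transcript, of 3975 bases in place of 7168, its level was 387 ± 66.1 (SD, n = 3) and lay above TBCE in the mean. In CA4 the order of the means was the same, from TBCA at 1437 ± 86.2 to TUBD1 at 20.7 ± 3.95 (SD, n = 3 each).

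On the same per-kilobase scale the alpha tubulins together had 21474 ± 4414 in DMSO and 4871 ± 712 in CA4, and the beta tubulins 17300.3 ± 3558 and 6011 ± 357 (SD, n = 3 each). The cofactors were set against the chain they bind, library by library. TBCB had 3.00, 4.70 and 3.98 transcripts per 100 alpha tubulin transcripts in DMSO and 16.1, 15.9 and 18.5 in CA4. TBCE had 1.28, 1.39 and 1.33 in DMSO and 6.04, 5.35 and 7.08 in CA4, a ratio of means of 4.61. For beta tubulin, TBCA had 6.52, 9.40 and 9.38 per 100 in DMSO and 21.99, 23.4 and 26.5 in CA4. TBCD had 1.18, 1.45 and 1.124 per 100 in DMSO and 3.35, 3.67 and 3.18 in CA4. These TBCD values use its transcript of 7168 bases, and with that of 3975 bases they were 2.03 to 2.62 in DMSO and 5.74 to 6.62 in CA4. All 4 ratios were higher in every CA4 library than in any DMSO library, and the ratio of the group means ran from 2.72 for TBCD to 4.61 for TBCE. None of the 4 cofactors passed the test of change, so these ratios restate the lower tubulin levels relative to each cofactor, and they describe messages, not protein.

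**Figure D3:**
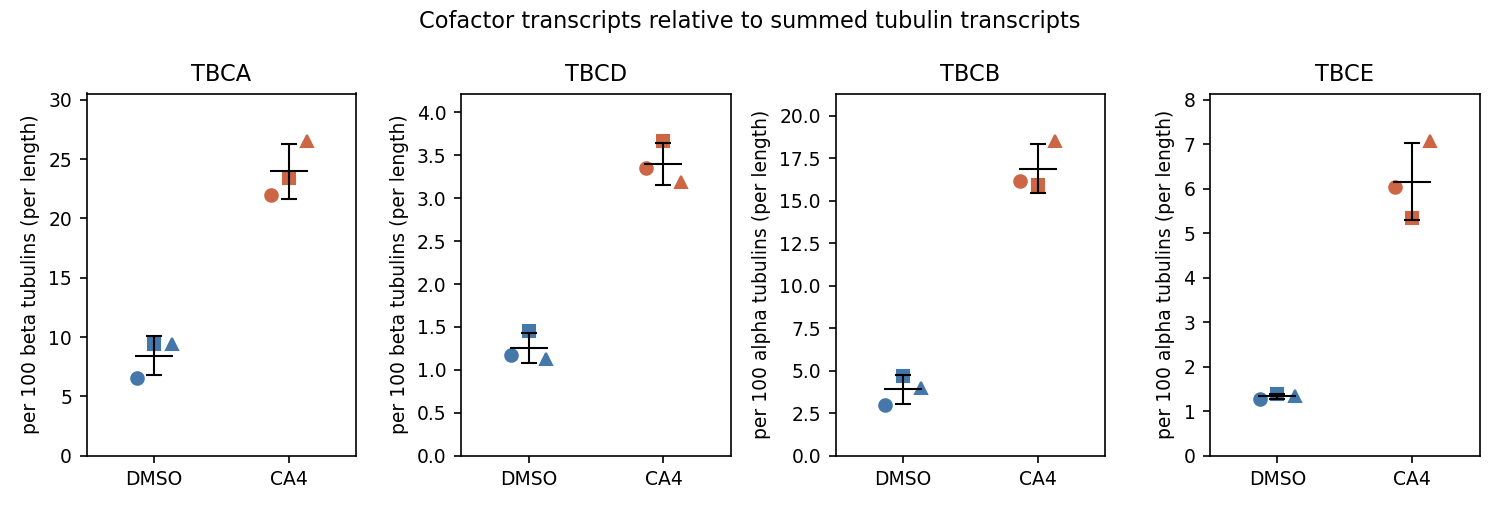
Transcripts of TBCA and TBCD per 100 summed beta tubulin transcripts, and of TBCB and TBCE per 100 summed alpha tubulin transcripts (y axes from 0, per kilobase of main transcript, that of 7168 bases for TBCD), in each DMSO and CA4 library with the group mean and SD (n = 3). The CA4 libraries lie above the DMSO libraries in all 4 panels, as for TBCE at 5.35 to 7.08 against 1.28 to 1.39.

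Other genes of tubulin folding and of centriole structure were read from lists written from general knowledge. Of 11 relatives of the cofactors and partners of ARL2, 0 passed in limma, beside 4.94% of all tested genes. Their median log2 fold change was -0.10, with 9 of 11 below 0 (8 under quantile normalization). With equal library totals the median was -0.21 and 10 were below 0. UNC119, a carrier of lipid-modified proteins that binds ARL2 and ARL3, had 313, 373 and 413 normalized counts in DMSO and 231, 294 and 257 in CA4 (log2 fold change -0.49, limma adjusted p = 0.116). PDE6D, another such carrier, had a log2 fold change of -0.34 (limma adjusted p = 0.199), and its CA4 libraries also lay below all DMSO libraries. Of the 11, the groups of 3 lay apart with CA4 lower and those of 1 with CA4 higher. Among all tested genes 13.4% and 14.3% did so. The 1 with CA4 higher was ARL2BP, a partner of ARL2, at 0.14 (limma adjusted p = 0.349). RP2, a relative of TBCC that acts on ARL3, was at -0.26 (limma adjusted p = 0.307).

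Upstream of the cofactors, 0 of 6 prefoldin subunits and 0 of 8 CCT subunits passed, beside 4.94% of all tested genes. The prefoldin median was -0.0084 (-0.11 with equal library totals) and PFDN2 had the largest value, with 606, 517 and 552 normalized counts in DMSO and 787, 652 and 701 in CA4 (log2 fold change 0.35, limma adjusted p = 0.123). Next in order of p were PFDN1 at -0.16 (limma adjusted p = 0.38) and PFDN6 at 0.18 (limma adjusted p = 0.51). All 8 CCT subunits had a log2 fold change above 0, from 0.05 to 0.29, with TCP1 at 0.26 (limma adjusted p = 0.124), CCT5 at 0.29 and CCT3 at 0.18 (limma adjusted p = 0.353 and 0.38). Their median was 0.18. With equal library totals 6 of the 8 were above 0 and the median was 0.08, and under quantile normalization these were 6 and 0.09. Of the phosducin-like proteins, which assist CCT, PDCL and PDCL3 were tested and did not pass, and PDCL2 was listed at 0 in every library.

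Among 9 partners of delta and epsilon tubulin and proteins of the inner centriole wall, 0 passed, beside 4.94% of all tested genes. Of these 9, 8 had a log2 fold change below 0 (7 under quantile normalization) and the median was -0.31. The 15 proliferation genes, all below 0 with a median of -0.37 (14 below 0 under quantile normalization), lay on the same side, and their part in these values was not tested. TEDC1 and TEDC2, the direct partners, had log2 fold changes of -0.31 and -0.44 with overlapping groups (limma adjusted p = 0.478 and 0.476). FAM161A, a protein of the inner wall, had 79.2, 102 and 137 normalized counts in DMSO and 62.8, 51.6 and 44.6 in CA4 (log2 fold change -0.96, limma adjusted p = 0.0817). CETN3, a centrin, was at -0.50 (limma adjusted p = 0.137), and the centrin CETN2 was at -0.15 (limma adjusted p = 0.418). Over the 4 lists of relatives, prefoldin, CCT and centriole genes, at an unadjusted p under 0.05 there were 2, 1, 1 and 2 genes, beside 23.0% of all tested genes.

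**Figure D4:**
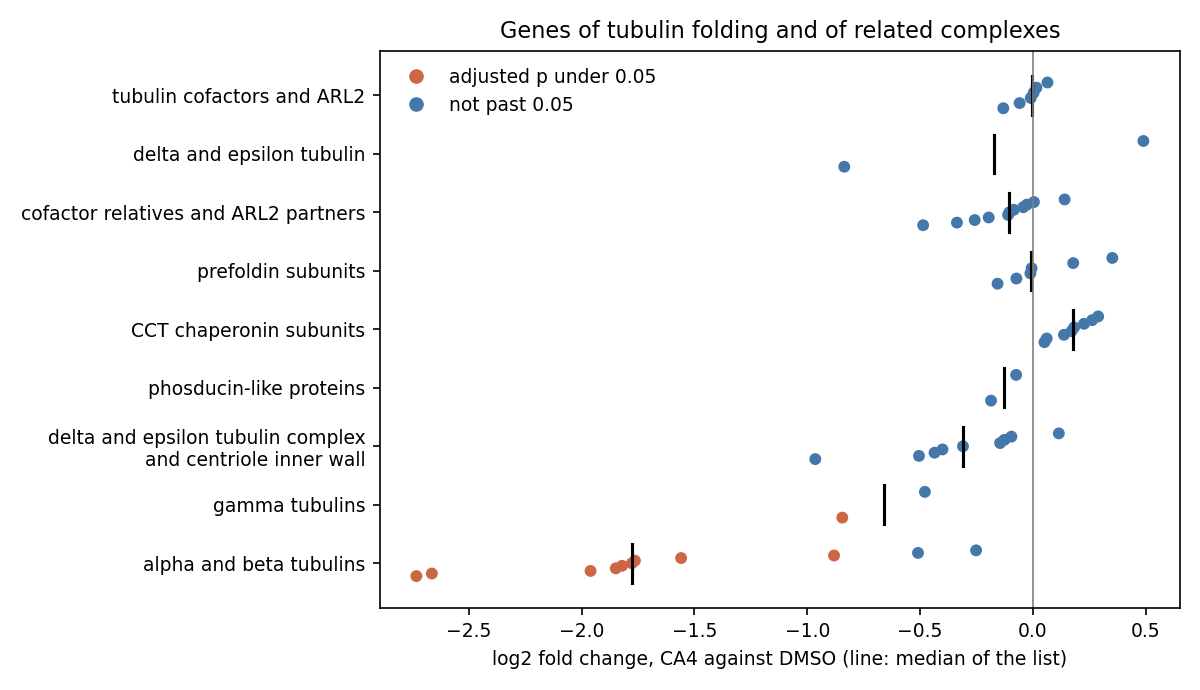
Log2 fold change in CA4 against DMSO (x axis) of each tested gene in 9 lists of tubulin folding and related complexes, 1 point per gene, with the list median as a black line; orange marks an adjusted p under 0.05 in limma. The orange points are 9 alpha and beta tubulins and TUBG1, and the cofactors and ARL2 lie between -0.13 and 0.06.

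The tested genes whose pattern over the 6 libraries was most like that of TUBD1 and TUBE1 were found by the root-mean-square difference of log2 values after each gene's own mean was subtracted. For TUBD1 they were TULP4 (0.092), SLC25A53 (0.102) and BPGM (0.102), against a median of 0.521 over all other genes. TULP4 and BPGM had log2 fold changes of -0.71 and -0.83 and passed in limma (adjusted p = 0.0429 and 0.0215). Both lost the call without CA4 replicate 1 or 3 or DMSO replicate 2 or 3, with limma adjusted p-values from 0.0734 to 0.134. For TUBE1 they were FBLIM1 (0.0212), JPH2 (0.0626) and UTRN (0.0628), against a median of 0.353. JPH2 passed in limma (log2 fold change 0.55, adjusted p = 0.0464) but in none of the 6 fits without a library (adjusted p 0.064 to 0.156). FBLIM1, at a log2 fold change of 0.47 and an adjusted p of 0.0761 in limma, ran closest of all to its gene. With so many genes and 6 libraries some close matches arise in any case, and these are given as descriptions.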

How the data were processed

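Expression was read from 1 table of signal values in which, per the file header, each of 6 libraries has a column of normalized counts. Trim Galore 0.6.6, STAR 2.7.9a, Salmon 1.8.0, DESeq2 1.44.0 and GRCh38 are named, without roles, per the submitters' processing notes; annotation release and strand use are not given in the sources used here. In each deposited column all values below 2000 were whole multiples of 1 step within 0.01 (higher ones within a proportionally wider tolerance), which gave back whole reads; with Salmon named, these may be rounded estimates. Symbols came from the supplied gene names (35803 IDs matched), and coordinates, exons and coding starts from GENCODE 29 (GRCh38), whose main transcript is the best APPRIS one.

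Genes averaging 10 or more normalized counts were tested on log2(normalized count + 1), which understates changes of low genes, with limma 3.58.1 in R 4.3.3 (trended empirical Bayes, treatment as the only term, two-sided, Benjamini-Hochberg over all tested genes, threshold 0.05). Intervals use limma's moderated standard errors. Count tests on recovered reads used edgeR 4.0.16 and DESeq2 1.42.0 as alternatives. The scripts were tested on simulated data. The genes and lists were chosen with earlier results of these data known. Named are all 8 genes and rows that share their exons, except RPS21P1 at TBCE, which averaged 0 normalized counts. Also named are up to 3 genes with the smallest adjusted p from each other list. The 3 closest patterns for the 2 members with the smallest p are named too. Outside this rule, and chosen after their values were seen, are INTS15, TEDC1, TEDC2, PDCL2, ARL2BP, TUBA8, TUBB6 and the TBCA pseudogenes. So are the markers named for their level (KRT8, RLBP1, LRAT, TYR, TTR, CD3E and HBB). TUBA1B and TUBB, shown for their coding starts, stand outside it as well. No list was tested as a set.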

Additional observations from a re-analysis of the deposited data

How the results depend on the processing

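All 16 alternatives kept the direction of TUBD1 (log2 fold change -0.98 to -0.66, adjusted p 0.0688 to 0.279) and TUBE1 (0.39 to 0.61), and of ARL2 (-0.23 to -0.093). None of the 8 genes passed in 15 of them. With the replicate number as a block, 1 gene passed, TUBE1 (0.49, limma adjusted p = 0.0478), while 2397 genes (17.2%) passed in all. Deviations of same-numbered libraries correlated at 0.202, 0.159 and 0.059, and those of differently numbered libraries at -0.214 to 0.074. As not all same-numbered values were above 0.1, the libraries were not treated as paired. The labels do not say whether a number marks a shared culture or batch, so whether the libraries are paired is not known. Against 688 genes past the threshold, there were 1613 in DESeq2 and 103 without the variance trend, and 84 to 990 when 1 library was left out. The fewest, 84, came without DMSO replicate 3, and there were 107 without DMSO replicate 2, 150 without CA4 replicate 3 and 156 without CA4 replicate 1.

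The other cofactors were too close to 0 to have a direction. With the same total per library TBCA was at -0.086, TBCB at -0.098 and TBCE at -0.037. Under quantile normalization TBCB was at -0.028 and TBCC at 0.038. TBCC was at 0.0036 in DESeq2 and 0.0070 in edgeR. Leaving out 1 library gave -0.032 to 0.052 for TBCA, -0.039 to 0.062 for TBCB, -0.12 to 0.14 for TBCC, -0.18 to 0.064 for TBCD and -0.0076 to 0.20 for TBCE, with limma adjusted p-values of 0.32 or more. For these the cause was not tested. TUBD1 had the fewest reads of the 8 genes, 40 to 124 per library.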
